A study of Mus musculus with 2 samples.

Results

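Heat shock proteins and chaperones, the proteins that fold, refold and hold other proteins, were examined in stem cell-enriched cells of the mouse fetal liver (FL). The set held 49 genes of the 23284 gene symbols measured, chosen by name from the cytosolic, mitochondrial and endoplasmic reticulum (ER) chaperones, their cochaperones and the heat shock factors. All 49 were present, and all had at least 1 FPKM in at least 1 library. The cells were the LSK CD48– fraction (lineage marker-negative, Sca-1-positive, c-Kit-high and CD48-negative) of E14.5 FLs (embryonic stage in days), with 1 library from WT fetuses and 1 from ESAM-null fetuses. ESAM-null fetuses lack the endothelial cell-selective adhesion molecule in every cell from conception, since the knockout is a conventional homozygous one, so the endothelial cells around the stem cells lack it too. The sources used here do not give the strain of the mice, nor how many fetuses and cells gave each library. The sample labels describe methylcellulose culture of the sorted cells, whereas the text of the study speaks of sorted FL cells, and the values are read here as those of sorted cells.

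The values are FPKM, sequenced fragments per kilobase of exon after scaling for library size, so levels are already divided by gene length. Esam, the deleted gene (chromosome 9, 37528078 to 37538319 on mm10), was 117.6 FPKM in WT against 12.1 FPKM in ESAM-null. The source of the Esam signal left in ESAM-null was not tested. From the steps between the lowest values, about 9349401 reads stood behind the WT values and about 10173764 behind the ESAM-null values. All 8 stem cell markers were above 1 FPKM, with summed levels of 639 FPKM in WT against 601 FPKM in ESAM-null and no member past 2-fold. Cd48, against whose product the cells were sorted, was 16.6 FPKM in WT against 22.0 FPKM in ESAM-null. Summed levels of marker lists for maturing erythroid cells, hepatocytes, macrophages and endothelial cells lay between 27.9 and 42.4 FPKM in WT and between 30.6 and 37.1 FPKM in ESAM-null. Of these markers 2 of 8, 6 of 9, 4 of 8 and 1 of 6 were at 0 in ESAM-null, Alb and C1qa among them. The same lists had 0, 1, 0 and 0 genes at 0 in WT. Over all 23284 symbols, 8979 were at 0 in WT and 10245 in ESAM-null. The sums hide members that went both ways, since at 2-fold 3 of the 8 erythroid markers were higher (Klf1, Cldn13 and Ermap) and 4 were lower (Alas2, Slc4a1, Trim10 and Epb4.2). At the same threshold 1 hepatocyte marker was higher and 2 were lower, 2 macrophage markers were lower and 1 endothelial marker was higher. Granulocyte and megakaryocyte markers summed to 260.4 and 84.2 FPKM in WT, and to 265.9 and 94.7 FPKM in ESAM-null. The part of other cells in the chaperone values was not tested. In whole sorted fractions like these, fewer cells that express a gene and less RNA of that gene per cell cannot be told apart. Each genotype had 1 library, so the differences below have no replicate check and no p-value. The intervals below are 95% exact (Clopper-Pearson) counting intervals from approximate reads and cover counting error only.

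Chaperones work as families. HSP70 proteins bind unfolded stretches with the help of J proteins and exchange factors, HSP90 finishes the folding of kinases and receptors, the TRiC/CCT ring encloses actin and tubulin, and mitochondria and the ER each hold their own set. In the cytosol heat shock factors switch on a small group of inducible genes when proteins misfold, whereas in the ER the unfolded protein response raises the resident chaperones. Hematopoietic stem cells are known for tight control of protein synthesis and folding.

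In the ESAM-null library, the stress-inducible HSP70 genes Hspa1a and Hspa1b, the small heat shock protein gene Hspb1 and the ER chaperone gene Hyou1 were each at least 2-fold higher than in WT. None of the 49 members was at least 2-fold lower, and 45 were within 2-fold. The 4 higher members compare with 7.42% of the 12066 genes that had at least 1 FPKM in 1 library, and the absence of lower members compares with 12.8%. At 1.5-fold, 7 members were higher (also Hspa2, Cct6a and Hspe1) and 2 were lower (Hsf2 and Hspa13). Over all genes 17.4% were at least 1.5-fold higher and 21.8% at least 1.5-fold lower. The ratio was above 1 for 43 of the 49 members, against 50% of all genes. The split was 31 of 49 when both libraries were brought to the same total, a step that lowers each log2 ratio by the same amount (-0.28). Summed over the 49 members, the level was 8347 FPKM in WT against 11211 FPKM in ESAM-null, 1.34-fold higher, or 1.11% and 1.23% of all FPKM in the library. The FPKM of all genes together was also higher in ESAM-null, at 751784 in WT and 911736 in ESAM-null.

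**Figure D1:**
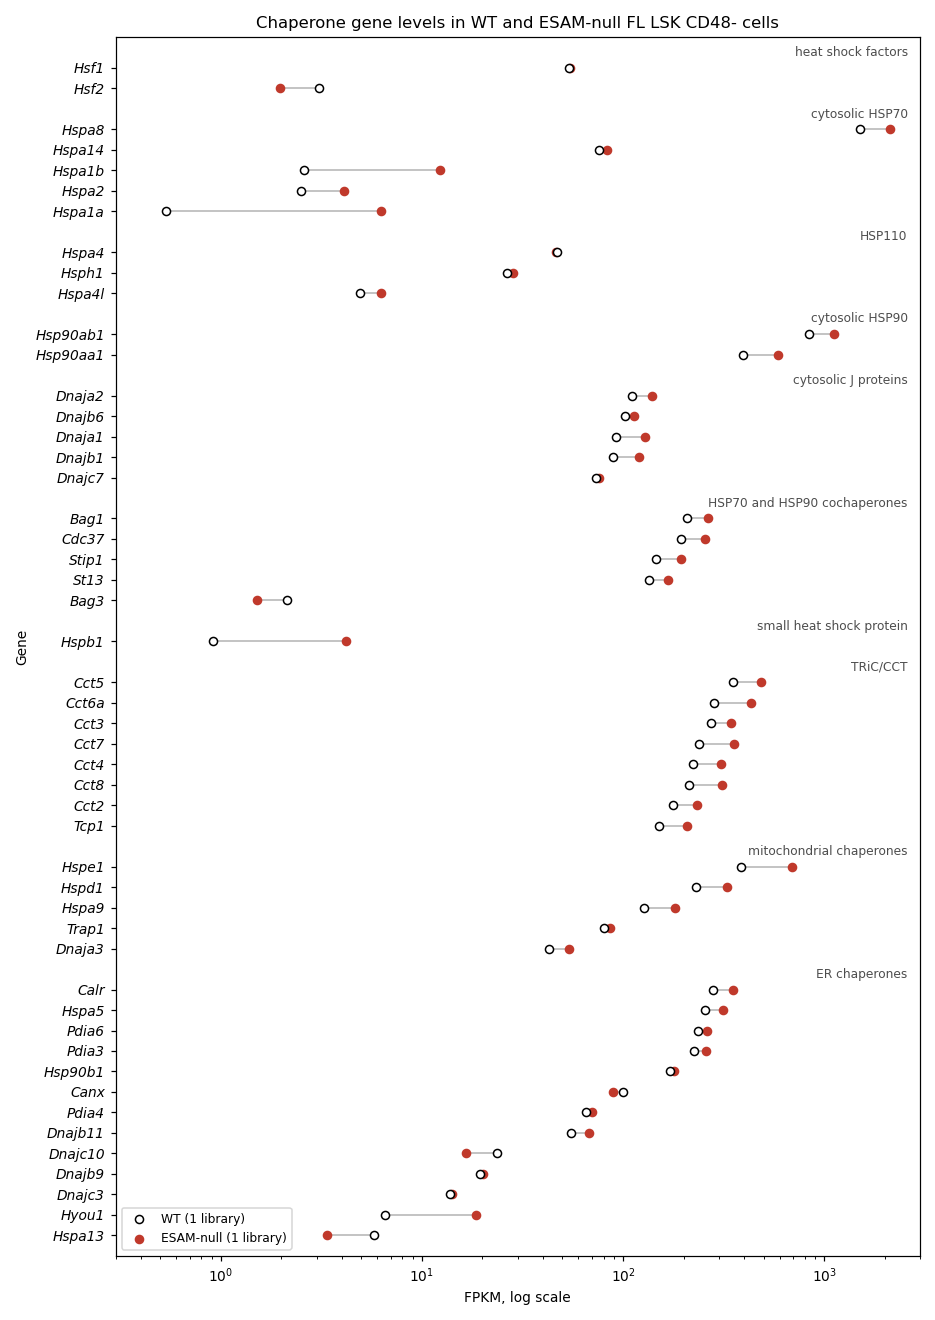
Level of each of the 49 chaperone genes in FPKM (log axis) in the WT library (open circles) and the ESAM-null library (filled circles), grouped by class and ordered by level. Most pairs of circles lie close together with the filled circle slightly to the right, while Hspa1a, Hspa1b, Hspb1 and Hyou1 are far apart, and the levels run from 0.532 FPKM (Hspa1a in WT) to 2121 FPKM (Hspa8 in ESAM-null).

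Most members are abundant, and abundant genes of every kind had higher ratios in this pair of libraries. Among all genes with a mean of 1 to 10 FPKM the median log2 ratio of ESAM-null to WT was -0.22, among those of 100 to 300 FPKM it was 0.29, and among those of 300 FPKM or more it was 0.49. The 27 members with a mean of at least 100 FPKM all had a ratio above 1. So did 83.9% of the 1332 genes at that level, with a median log2 ratio of 0.42 for the members and 0.36 for all of these genes. Of the 27 members, 2 were at least 1.5-fold higher, against 23.7% of all genes at that level. Each member was therefore also set beside the 500 genes nearest to it in level. The median log2 ratio of the 49 members was 0.34 before this step and 0.07 after subtraction of the median of the nearest genes, and 30 of 49 lay above that median. The same median over the 12066 genes with at least 1 FPKM in 1 library was 0.01.

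**Figure D2:**
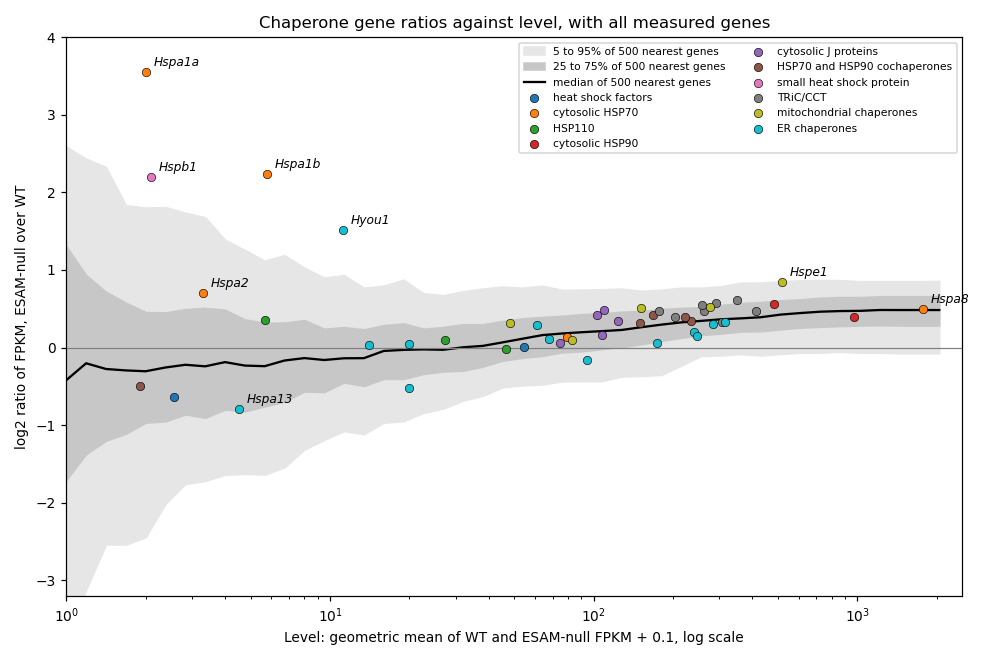
Ratio of ESAM-null over WT levels (log2) of each chaperone gene (points, coloured by class) against its level, the geometric mean of both libraries (log axis). The black line is the running median of the 500 genes nearest in level, which climbs to 0.48 at the highest levels, and the shaded bands hold 25 to 75% and 5 to 95% of those genes. Hspa1a, Hspa1b, Hspb1 and Hyou1 are above the outer band and most other members are within it.

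The heat shock factors are the transcription factors that turn on inducible chaperone genes. Hsf1, the main factor of the response, was 54.0 FPKM in WT against 54.4 FPKM in ESAM-null, a log2 ratio of 0.01 with an interval of -0.12 to 0.14. Hsf2, which acts in development and together with HSF1, was 3.07 FPKM in WT against 1.98 FPKM in ESAM-null, 1.55-fold lower. Its values rest on about 69 and 48 reads, and its percentile of 34.4 among the genes nearest in level is unremarkable. Bag3, an exchange factor that HSF1 induces, was also low, at 2.13 FPKM in WT against 1.51 FPKM in ESAM-null. The interval of its log2 ratio ran from -1.17 to 0.15, so a difference was not detectable at this depth.

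Hspa1a and Hspa1b are neighbouring copies that encode nearly the same stress-inducible HSP70 protein. Both lie on the minus strand of chromosome 17, Hspa1a from 34969190 to 34972156 and Hspa1b from 34956436 to 34959238 on mm10. The 250 bases before each start site are printed with those of Hspb1, because these 3 genes had the largest ratios of the set. The windows are from RefSeq on GRCm38.p6 and read 5′ to 3′ on the strand of the gene. Capitals mark a 2-unit heat shock element (GAANNTTC or TTCNNGAA, each of which reads the same on the opposite strand), the form of sequence that heat shock factors bind.
Hspa1a, chr17:34972157-34972406, minus strand: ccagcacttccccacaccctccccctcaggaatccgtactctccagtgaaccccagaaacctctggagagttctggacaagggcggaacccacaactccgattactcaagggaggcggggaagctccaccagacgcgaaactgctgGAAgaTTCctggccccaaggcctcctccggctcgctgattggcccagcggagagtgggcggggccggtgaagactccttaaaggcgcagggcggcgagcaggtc
Hspa1b, chr17:34959239-34959488, minus strand: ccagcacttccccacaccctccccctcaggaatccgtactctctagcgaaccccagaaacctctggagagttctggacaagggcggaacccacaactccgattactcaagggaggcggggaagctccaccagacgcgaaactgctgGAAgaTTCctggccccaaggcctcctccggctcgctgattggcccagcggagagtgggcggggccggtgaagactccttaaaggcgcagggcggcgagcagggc
Hspb1, chr5:135887669-135887918, plus strand: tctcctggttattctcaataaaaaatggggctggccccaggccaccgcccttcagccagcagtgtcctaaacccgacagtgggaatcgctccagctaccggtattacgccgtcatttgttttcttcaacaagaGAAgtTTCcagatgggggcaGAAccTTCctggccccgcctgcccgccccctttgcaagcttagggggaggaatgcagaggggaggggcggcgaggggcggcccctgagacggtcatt
The Hspa1a and Hspa1b windows were identical at 247 of 250 positions, and the match begins at -104 from the start site in both. The Hspb1 window holds 2 matches, at -117 and -97. A match is a description of the letters and not evidence that a factor binds there.

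Hspa1a was the least abundant member in WT, at 0.532 FPKM, and was 6.24 FPKM in ESAM-null, 11.7-fold higher (interval 6.70 to 21.6 from about 14 and 176 reads). Its ratio lay at percentile 99.4 of the genes nearest in level. Hspa1b was 2.61 FPKM in WT against 12.3 FPKM in ESAM-null, 4.71-fold higher (3.61 to 6.31 from about 63 and 325 reads), at percentile 99.2. Both remained well below the constitutive HSP70 gene in either library. Because 52.7% of the 75-base windows of the Hspa1a transcript also occur in Hspa1b, reads may have been split between the copies, and the sources used here do not say how. Summed, Hspa1a and Hspa1b were 3.14 FPKM in WT against 18.5 FPKM in ESAM-null, 5.90-fold higher (4.70 to 7.70). Hspa1b exceeded Hspa1a 4.90-fold in WT and 1.97-fold in ESAM-null. Hspa1l, the testis-enriched HSP70 gene next to them and not a member, was 1.49 FPKM in WT (about 32 reads) but was listed at 0 in ESAM-null, and was looked up after its neighbours' values were seen.

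Hspb1 encodes HSP27, a small heat shock protein that holds unfolded proteins and steadies the actin skeleton, and it lies on chromosome 5 from 135887919 to 135889563. It was 0.915 FPKM in WT against 4.21 FPKM in ESAM-null, 4.60-fold higher. These values rest on about 6 and 30 reads, and the interval runs from 1.88 to 13.5. The ratio was at percentile 97.8 of the genes nearest in level. Of the 75-base windows of its transcript, 57.7% also occur in the processed pseudogene Hsp25-ps1. Of the 9 other small heat shock protein genes listed, 5 were at 0 in both libraries.

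Of 7 members known to be strongly heat-inducible (Hspa1a, Hspa1b, Hspb1, Dnajb1, Hsph1, Hsp90aa1 and Bag3), 3 were at least 2-fold higher and 6 had a ratio above 1, beside 7.42% and 50% of all genes tested. The 7 were listed with earlier results of these data known, so these counts are a description only. Hspa1a and Hspb1 reached 1 FPKM in the ESAM-null library alone, so their passing the filter depended on being high there, and Hspa1b was the 1 higher gene with at least 1 FPKM in both libraries. The median log2 ratio of the 7 was 0.57, or 0.21 after subtraction of the median of the genes nearest in level. The other 4 were within 1.5-fold. Dnajb1, the J protein partner of inducible HSP70, was 89.2 FPKM in WT against 119 FPKM in ESAM-null, and Hsph1, the inducible HSP110 that recharges HSP70, was 26.4 and 28.2 FPKM. The 3 genes with large ratios had 0.532 to 2.61 FPKM in WT, a range that Bag3 shared at 2.13 FPKM. Immediate early genes, which many cells switch on within minutes of a stimulus, were measured beside these members. Of 10 listed, 9 had at least 1 FPKM in 1 library and none of the 9 was past 2-fold. The other gene, Fosb, was 0.594 FPKM in WT against 0.191 FPKM in ESAM-null. Of the 9, 2 had a ratio above 1 and 7 a ratio below 1, and 5 were below percentile 25. Their median log2 ratio was -0.10, or -0.40 after subtraction of the median of the genes nearest in level. The summed level of the 10 was 1140.3 FPKM in WT against 1097 FPKM in ESAM-null. The largest ratio was that of Fos, at 87.4 and 139.6 FPKM.

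A 2-unit heat shock element was present in the 300-base window (250 before to 50 after the start) of 5 of the 6 heat-inducible members that had a window: Hspa1a, Hspa1b, Hspb1, Hsph1 and Bag3. Over all 32851 windows 15.1% held the element, and 32.7% of the 49 windows of 40 members did. The longer 3-unit form (3 alternating GAA and TTC units with 2 bases of any kind between them), which contains the 2-unit form, was in 0.603% of all windows and in those of Hsph1, Dnajb6, Hspd1 and Hspe1. Bag3 and Hsph1 hold the element and had log2 ratios of -0.50 and 0.10, so the element occurs in members with and without a large ratio.

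The constitutive HSP70 genes showed no large difference. Hspa8, which encodes HSC70, the everyday cytosolic HSP70, was the most abundant member at 1501 FPKM in WT against 2121 FPKM in ESAM-null. Its ratio of 1.41 was at percentile 52.8 of the genes nearest in level. It exceeded Hspa1a and Hspa1b together 478-fold in WT and 114-fold in ESAM-null. Of its transcript windows 68.6% also occur in other genes, mostly processed pseudogenes. Hspa14, a ribosome-associated HSP70, was 75.9 FPKM in WT against 83.2 FPKM in ESAM-null. Hspa2, an HSP70 best known from spermatogenesis, was 2.52 and 4.08 FPKM, 1.62-fold higher (1.15 to 2.30) and at percentile 79.6. The HSP110 genes, whose products serve HSP70 as exchange factors, ranged from 4.90 to 47.0 FPKM in WT. Hspa4 was 47.0 FPKM in WT against 46.3 FPKM in ESAM-null, and Hspa4l was 4.90 and 6.28 FPKM.

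J proteins deliver clients to HSP70, and the 5 cytosolic members were 1.04 to 1.39-fold higher. Dnaja2 was 110.4 FPKM in WT against 139 FPKM in ESAM-null, and Dnaja1 was 92.4 and 129 FPKM. Dnajb6, which keeps aggregation-prone proteins soluble, was 102 and 113 FPKM, and Dnajc7 was 73.2 and 75.9 FPKM. The class median log2 ratio was 0.34, or 0.11 after subtraction of the median of the genes nearest in level. Among cochaperones, Bag1, an HSP70 exchange factor needed for the survival of fetal liver blood cells, was 209 FPKM in WT against 265 FPKM in ESAM-null. Cdc37, which brings kinases to HSP90, was 195 and 255 FPKM. Stip1 links HSP70 to HSP90 and was 145 and 194 FPKM, and St13, which steadies the HSP70 complex, was 134 and 167 FPKM. These 4 cochaperones differed by 1.25 to 1.33-fold, and their percentiles ran from 51.0 to 67.8.

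HSP90 acts late in folding and keeps many signaling proteins active. Hsp90ab1, the constitutive form, was 844 FPKM in WT against 1113 FPKM in ESAM-null, 1.32-fold higher at percentile 40.2. Hsp90aa1, the inducible form, was 396 and 587 FPKM, 1.48-fold higher at percentile 70.2. The level of the inducible form relative to the constitutive form was 0.470 in WT and 0.528 in ESAM-null. Reads of Hsp90aa1 may be shared, since 53.1% of its windows also occur in other genes, whereas 0.736% of those of Hsp90ab1 do.

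The 8 TRiC/CCT genes, each encoding a different subunit of the ring, were all higher in ESAM-null by a small amount, also after each of the scalings tried. Their summed level was 1911 FPKM in WT against 2678 FPKM in ESAM-null, 1.40-fold higher, and their log2 ratios ran from 0.33 (Cct3) to 0.61 (Cct6a). Cct5 was the most abundant at 351 FPKM in WT against 485 FPKM in ESAM-null. Cct6a, the 1 subunit gene past 1.5-fold, was 284 and 433 FPKM, 1.52-fold higher at percentile 79.2. The other subunits, with Cct7 at 238 and 355 FPKM, Cct8 at 213 and 311 FPKM and Tcp1 at 151 and 209 FPKM among them, were between 1.25 and 1.49-fold higher. Cct3 was 275 and 344 FPKM, Cct4 was 222 and 308 FPKM and Cct2 was 177 and 233 FPKM. The most abundant subunit exceeded the least abundant 2.32-fold in both libraries. Of the 8, 7 lay above the median of the genes nearest in level, by a class median of 0.15 on the log2 scale, and Cct3 lay below it. The prefoldin genes, whose products hand actin and tubulin to TRiC, had a similar pattern. All 6 had a ratio above 1 and 3 were at least 1.5-fold higher. These counts compare with 50% and 17.4% of all genes tested. Among genes with a mean of at least 100 FPKM the shares were 83.9% and 23.7%. The median log2 ratio was 0.57, or 0.29 after subtraction of the median of the genes nearest in level. Pfdn5 was 244 FPKM in WT against 406 FPKM in ESAM-null and Pfdn4 was 58.5 and 103 FPKM.

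Apart from the lone small heat shock protein gene, the mitochondrial class had the largest ratio of summed levels, 867 FPKM in WT against 1342 FPKM in ESAM-null, 1.55-fold higher. Much of this came from Hspe1 and Hspd1, which encode HSP10 and HSP60, the lid and the barrel of the mitochondrial folding chamber. Hspe1 was 387 FPKM in WT against 692 FPKM in ESAM-null, 1.79-fold higher at percentile 93.8. Hspd1 was 230.2 and 329.9 FPKM, 1.43-fold higher at percentile 74.0. The level of Hspe1 relative to Hspd1 was 1.68 in WT and 2.10 in ESAM-null. Hspa9, the mitochondrial HSP70, was 127 and 181 FPKM at percentile 79.6. Dnaja3, its J protein, was 43.1 and 53.7 FPKM, and Trap1, the mitochondrial HSP90, was 80.1 and 85.9 FPKM. Shared windows made up 29.1% of the Hspe1 transcript and 33.7% of the Hspd1 transcript.

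Hspe1 and Hspd1 lie head to head on chromosome 1. The position of the Hspe1 start minus that of the Hspd1 start is 216 bases for 1 annotated Hspd1 start. It is -95 bases for the other, from which the genes overlap. The stretch with heat shock elements is printed from RefSeq GRCm38.p6, in the direction of Hspe1. It lies in the Hspe1 promoter window and in 1 of the 2 Hspd1 windows. The other Hspd1 window holds no such element, and from its start the stretch lies inside Hspd1. Capitals mark 4 alternating units that make 3 overlapping 2-unit matches, which begin between -89 and -79 from the Hspe1 start.
Hspe1, chr1:55088054-55088081, plus strand: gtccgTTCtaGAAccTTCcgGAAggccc
The Hspa1a and Hspa1b windows each hold 1 such match. Only exact matches were counted, so units with a changed letter are left out. Any relation between the elements and the ratios was not tested.

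**Figure D3:**
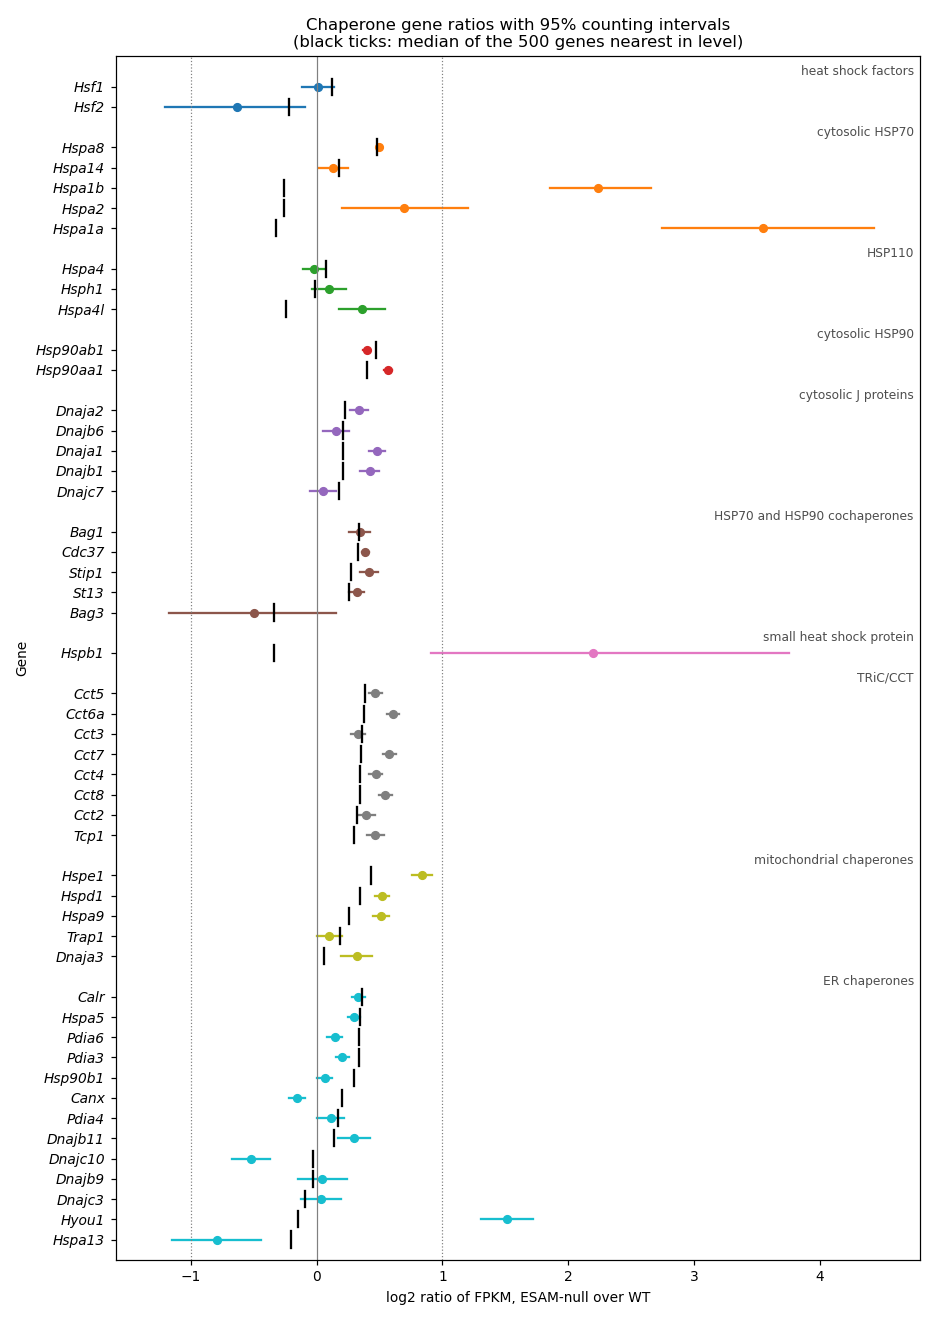
Ratio of ESAM-null over WT levels (log2) for each chaperone gene (points) with 95% counting intervals (bars), by class. Black ticks mark the median of the 500 genes nearest in level and dotted lines mark 2-fold. Hspa1a, Hspa1b, Hspb1 and Hyou1, from 3.55 (Hspa1a) to 1.51 (Hyou1), lie beyond the dotted line, whereas the intervals of Hspa8 and the TRiC/CCT genes are short and close to their ticks.

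The ER class was the least shifted of the large classes. Its summed level was 1456 FPKM in WT against 1664 FPKM in ESAM-null, 1.14-fold higher, and 4 of 13 genes lay above the median of the genes nearest in level. The class median log2 ratio was 0.11, and -0.17 when both libraries were brought to the same total. Hspa5, which encodes BiP, the ER HSP70 that restrains the sensors of the unfolded protein response, was 256 FPKM in WT against 314 FPKM in ESAM-null at percentile 40.8. Calr, a lectin that folds glycoproteins, was the most abundant at 280.3 and 352 FPKM, and Canx, its membrane-bound partner, was 99.9 and 89.6 FPKM. Hsp90b1, the ER HSP90, was 171 and 179 FPKM at percentile 23.8. The disulfide isomerase genes Pdia3, Pdia4 and Pdia6 were 1.08 to 1.15-fold higher, with Pdia6 at 236 and 260.4 FPKM, Pdia3 at 224 and 258 FPKM and Pdia4 at 65.2 and 70.3 FPKM.

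Hyou1 was the 1 ER member past 2-fold. It encodes GRP170, an HSP110-like exchange factor of BiP, and lies on chromosome 9 from 44379490 to 44392369. Hyou1 was 6.55 FPKM in WT against 18.7 FPKM in ESAM-null, 2.85-fold higher (2.48 to 3.29 from about 259 and 804 reads). Its percentile of 99.6 was the highest of the 49 members. None of its transcript windows occurs in another gene. Of 11 members known to be ER stress-inducible, Hyou1 was the 1 past 1.5-fold. Of all genes tested, 17.4% were at least 1.5-fold higher and 21.8% at least 1.5-fold lower. The median log2 ratio of the 11 was 0.14, or -0.05 after subtraction of the median of the genes nearest in level.

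Hspa13, an ER-associated HSP70, was 5.81 FPKM in WT against 3.36 FPKM in ESAM-null, 1.73-fold lower (1.36 to 2.22) at percentile 25.4. Dnajc10, which reduces disulfide bonds in proteins bound for degradation, was 23.7 and 16.5 FPKM, 1.44-fold lower at percentile 17.4. Canx was at percentile 16.8. Among the J proteins of BiP, Dnajb9 was 19.5 and 20.1 FPKM, Dnajb11 was 55.1 and 67.6 FPKM and Dnajc3 was 13.8 and 14.1 FPKM. The ER stress element (CCAAT and CCACG with 9 bases of any kind between them, searched on both strands) was in 0.119% of all promoter windows. It was in the windows of 6 members, Hspa5, Hsp90b1, Calr, Canx, Dnajc3 and Pdia6, whose log2 ratios ran from -0.16 to 0.33. Hyou1 and Hspa13 had no promoter window, so the element was not searched for in either. The element before Hspa5 is printed as the example, from RefSeq GRCm38.p6, with CCAAT and CCACG in capitals.
Hspa5, chr2:34772020-34772048, plus strand: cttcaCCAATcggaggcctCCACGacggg

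Beyond the members, 101 other chaperone and protein stress genes were listed in 10 groups, and 93 had at least 1 FPKM in 1 library. Of these, 4 were at least 2-fold higher and 3 at least 2-fold lower, beside 7.42% and 12.8% of all genes tested. Their median log2 ratio was 0.20, or 0.07 after subtraction of the median of the genes nearest in level. Among those with at least 5 FPKM in 1 library, Dnajb14, an ER membrane J protein, was 5.74 FPKM in WT against 14.9 FPKM in ESAM-null, and Hmox1, the stress-inducible heme oxygenase, was 5.81 and 13.2 FPKM. In the opposite direction, Sec63, which recruits BiP to the ER import channel, was 14.3 and 4.30 FPKM, 3.33-fold lower (2.89 to 3.85) at percentile 1.4. Over all genes tested 17.4% were at least 1.5-fold higher and 21.8% at least 1.5-fold lower. Of the 14 sensors and factors of the unfolded protein response, 4 were at least 1.5-fold higher and 2 at least 1.5-fold lower. Their median log2 ratio was -0.04. Among the higher ones, named after their values were seen, Ddit3, the stress factor CHOP, was 39.2 FPKM in WT against 67.3 FPKM in ESAM-null. Eif2ak3, the sensor PERK, was 2.72 and 5.29 FPKM. The 2 lower ones were Atf6, a sensor, at 3.71 and 1.88 FPKM, and Ern1, the sensor IRE1, at 2.98 and 0.181 FPKM. Of the 20 other ER folding and degradation genes, 3 were at least 1.5-fold higher and 3 at least 1.5-fold lower, and their median was 0.01. Manf, a secreted ER stress protein named in the same way, was 50.6 and 88.5 FPKM. The 3 lower genes of that list were Sec63, Sel1l at 14.3 and 7.93 FPKM and Edem1 at 8.03 and 4.60 FPKM. The median was 0.19 for the 13 mitochondrial partners and proteases, or 0.18 after subtraction of the median of the genes nearest in level. The 12 other HSP90 cochaperones had a median of 0.22 (0.04 after subtraction) with none past 2-fold. The median of the 6 other BAG and exchange factors was -0.03 (-0.12 after subtraction). The 13 other J proteins had a median of 0.28 (0.24 after subtraction). The 4 integrated stress and polyubiquitin genes, Hmox1 among them, had a median of 0.36 (0.02 after subtraction). Of the 4 relatives and regulators of the heat shock factors, 2 passed the filter, and of the 9 other small heat shock proteins, 3 did.

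**Figure D4:**
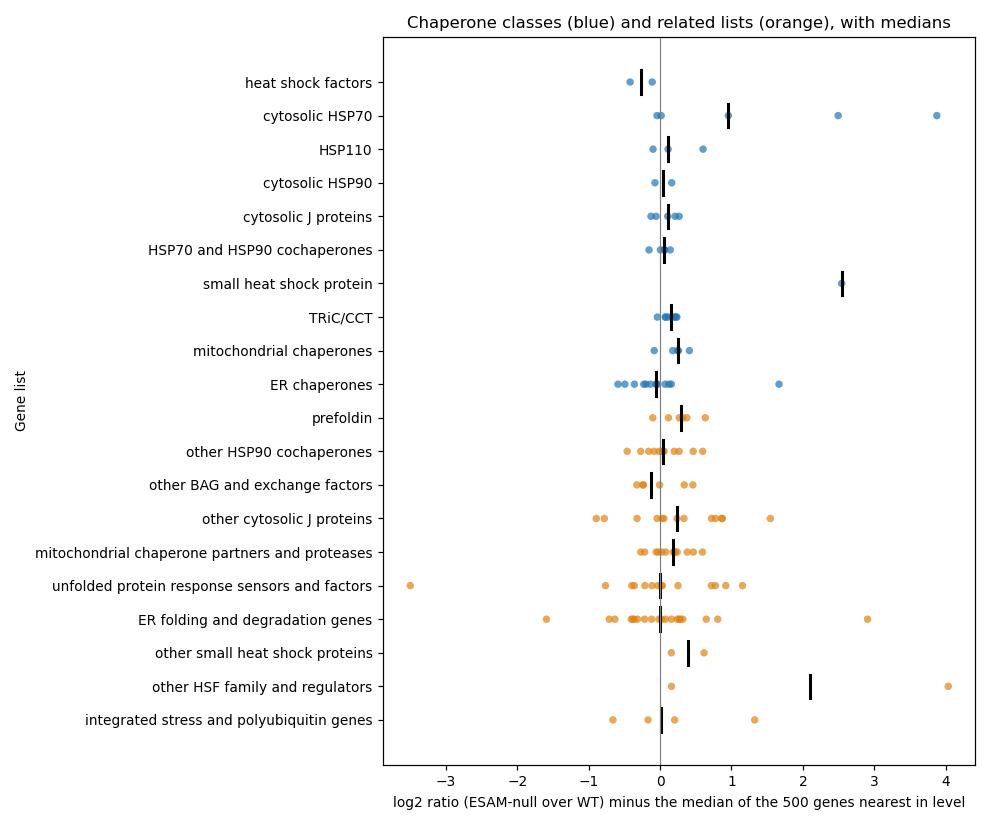
Log2 ratio of ESAM-null to WT after subtraction of the median of the 500 genes nearest in level, for each gene of the chaperone classes (blue) and of the related lists (orange). Black bars are list medians. The TRiC/CCT, mitochondrial and prefoldin medians are at 0.15, 0.25 and 0.29, the ER median is at -0.06, and the widest scatter is in lists with genes of low level.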

How the data were processed

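RNA was measured in 1 WT and 1 ESAM-null library of E14.5 FL LSK CD48– cells. SMART-Seq v4 cDNA, sheared to between 200 and 500 bp, was sequenced from 1 end over 75 bp. The values are FPKM per gene symbol (23284 symbols) as deposited by the authors. According to the submitters' processing notes, the mm10 build, Cuffnorm 2.2.1, TopHat2 2.0.13, SAMtools 0.1.19 and Bowtie2 2.2.3 were used. The sources used here do not give the annotation, the library normalization setting or the treatment of multiply mapped reads, and the last of these can shift levels between near-identical genes.

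The deposited FPKM of ESAM-null was divided by that of WT for each gene with at least 1 FPKM in 1 library, and genes past 2-fold and 1.5-fold were counted. Level was the mean of log2(FPKM + 0.1), and percentiles and medians were taken over the 500 genes nearest in level. Approximate reads were FPKM times effective length (GENCODE M21 and RefSeq on GRCm38, fragments of 200 bp with an SD of 80 bp) at the total where low values fall on whole reads. Within 0.05 of a whole read lay 63.4% of 830 low values in WT and 69.8% of 487 in ESAM-null. The steps were tested on simulated data. Shared 75-base windows were counted over GENCODE M21 transcripts, and motifs were searched in RefSeq promoter windows of 40 of the 49 members.

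The members and lists were chosen with earlier results of these data known. The naming rule took members past 1.5-fold, the highest and lowest members and the 2 most abundant of each class, and listed genes past 2-fold with at least 5 FPKM in 1 library. Values of most other members were added. Alternatives were other filters, pseudocounts, scalings and thresholds, and leaving out classes. Calculations used Python 3.11.15 with scipy 1.17.1, pandas 2.3.3 and numpy 2.4.6, and plots matplotlib 3.10.9.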

Additional observations from a re-analysis of the deposited data

How the results depend on the processing

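With 1 library per genotype, none of these values can be set against a spread between replicates. No paired analysis was possible because each genotype had 1 library. The 4 members at least 2-fold higher in ESAM-null became 2 (Hspa1b and Hyou1) when 1 FPKM was required in both libraries, and 7 at a threshold of 1.5-fold, where 2 were lower. Scaling both libraries to 1000000, a shift of -0.28 in log2 ratios, left 1 member (Hspa13) at least 2-fold lower. Members with a ratio above 1 then numbered 31, the median log2 ratio of the members was 0.057, and 8 of the other chaperone and stress genes were at least 2-fold lower. Centring on the 500 genes nearest in level, chosen after seeing the data, gave a median of 0.073 with 4 members at least 2-fold higher. Leaving out any 1 class kept the median between 0.32 and 0.41. Of 343 member values recomputed under other settings, 78 moved by at least the mean distance from the log2 ratio to the ends of its counting interval. No value past 2-fold changed sign. Depth limits Hspa1a and Hspb1 most, at about 14 and 6 reads in WT.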

Other observations

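Genes of the related lists that were past 2-fold with less than 5 FPKM in both libraries are outside the naming rule and were picked after their values were seen. Ern1, which encodes the unfolded protein response sensor IRE1, was 2.98 FPKM in WT against 0.181 FPKM in ESAM-null, 16.5-fold lower (9.53 to 33.6) at percentile 7.8 of the genes nearest in level. Hspbap1, which encodes a protein that binds HSP27, was 0.241 and 2.77 FPKM, 11.5-fold higher (4.11 to 64.9). Derl3, a factor of ER-associated degradation, was 0.564 and 3.37 FPKM, 5.98-fold higher (2.44 to 16.8). Hspb9, a testis small heat shock protein gene, was 1.64 FPKM in WT but was listed at 0 in ESAM-null, and its counting interval allows a WT level as little as 1.86-fold higher.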
